A study of Mus musculus with 10 samples.

Results

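The genes described here lie on mouse chromosome 5 within 10 Mb of Shh, the locus from which Cre is expressed in these mice. They were chosen by position (GRCm38 chromosome 5, 18456840 to 38467101) and by passing edgeR's filter on low counts, with Shh, Emilin1, Fgfr3, Nos3, Reln, Insig1, Preb, Wfs1 and Psmc2 left out. Of 253 genes of the count table in this window, 176 passed the filter and 167 remained after the 9 omissions, out of 15301 genes tested in all. The 77 window genes that did not pass were not tested. Of the 167 members, 157 are protein-coding and 10 are long non-coding RNA genes, and 52 lie centromeric and 115 telomeric of Shh.

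RNA of whole lungs was sequenced from 5 EpithelialKO mice (Shh Cre/+, Ern1 floxed on both chromosomes) and 5 Flox mice (Shh +/+, with the same floxed Ern1 alleles and no Cre). Ern1 encodes IRE1α, a sensor of protein folding in the endoplasmic reticulum. Cre acts only in cells of the Shh-expressing lineage, in the lung the epithelium, whereas the libraries hold RNA of all lung cells. EpithelialKO mice therefore differ from Flox mice at the Shh locus itself as well as in epithelial Ern1. The labels give no strain, age, sex, litter or breeding history.

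Genes that lie close together on a chromosome are inherited together, and recombination separates them more often the farther apart they are. DNA that flanks an inserted Cre can therefore come from the strain in which the insertion was made, and flanking genes can differ between carriers and non-carriers through their own variants. The Shh region is also a large regulatory domain: enhancers of Shh lie far from it, among them the limb enhancer within an intron of the neighbouring gene Lmbr1. The comparison asked whether EpithelialKO and Flox lungs differed in the genes that flank Shh, and whether the difference depended on the distance from Shh. In this design linked variants, the Cre insertion and the loss of Ern1 cannot be told apart, since all 5 EpithelialKO mice carry Cre and no Flox mouse does.

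Total counts per mouse ranged from 16234895 to 18870247 in EpithelialKO and from 14983829 to 21224412 in Flox. All listed epithelial, endothelial, fibroblast and smooth muscle markers had counts. Xist reached 3949 counts in Flox mouse 4 and 4866 in Flox mouse 6, both without Y-linked counts, and at most 61 in the other 8 mice. By these counts Flox mice 4 and 6 were classed as female and the other 8, with all 5 EpithelialKO mice, as male. This sex class is thus not balanced between the groups, and main results are also given without Flox mice 4 and 6. Shh itself averaged 17.1 ± 5.54 CPM in EpithelialKO and 17.4 ± 4.86 CPM in Flox (SD, n = 5 each). CPM are counts scaled to library size after TMM (edgeR's cpm), and differences are log2 fold changes of EpithelialKO over Flox from edgeR, with standard errors (SE) and p-values adjusted over all 15301 genes.

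Start-site sequences of Rheb and Slc2a9 are shown because these were the 2 members whose EpithelialKO and Flox values did not overlap. Each sequence runs from 250 bases before to 50 bases after a start in the promoter table from RefSeq on GRCm38.p6. The start used for Rheb is the end of the gene span, whereas the 1 entry for Slc2a9 lies at a start within the gene span, and the outermost start of Slc2a9 is not shown. Capitals mark matches to CACGTG (E-box) and GGGCGG (GC box); the other motifs searched, on both strands, were CCAAT, TGACGTGG (an element bound by XBP1 and ATF6) and GACCACCCA (an element bound by GLI factors).
Rheb, chr5:24842312-24842611, minus strand: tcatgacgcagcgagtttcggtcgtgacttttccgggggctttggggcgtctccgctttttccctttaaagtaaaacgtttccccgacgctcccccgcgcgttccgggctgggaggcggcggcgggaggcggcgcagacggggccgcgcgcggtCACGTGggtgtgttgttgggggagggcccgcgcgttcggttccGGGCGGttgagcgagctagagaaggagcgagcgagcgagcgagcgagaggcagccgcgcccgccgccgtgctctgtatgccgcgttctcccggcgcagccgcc
Slc2a9, chr5:38483336-38483635, minus strand: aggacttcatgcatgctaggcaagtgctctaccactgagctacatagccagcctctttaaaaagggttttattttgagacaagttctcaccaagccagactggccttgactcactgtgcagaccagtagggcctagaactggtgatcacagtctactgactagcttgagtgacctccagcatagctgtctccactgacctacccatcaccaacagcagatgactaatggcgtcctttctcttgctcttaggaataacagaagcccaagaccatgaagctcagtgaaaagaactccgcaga
The Rheb promoter is 70% G and C and held 2 matches, and the Slc2a9 sequence, at the internal start, is 48.3% G and C and held none. Promoters were at hand for 150 of the 167 members and for 11745 of the 15301 tested genes. CACGTG was present in 10% of the members' promoters and in 9.69% over the tested genes, GGGCGG in 70.7% and 61.5%, and CCAAT in 30.7% and 38.2%. TGACGTGG was in 0 of 150 members' promoters and in 0.851% of those of the tested genes, and GACCACCCA in 1 of 150 and in 0.196%. These shares describe letters in the window and were not tested.

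The flanking genes had a median near 0 and fold changes with little relation to distance from Shh. Their median log2 fold change was 0.0056, with 86 members positive and 81 negative, against a median of 0.00084 over all tested genes. No member passed an adjusted p of 0.05 in edgeR (lowest 0.108, for Slc2a9), where 0.0392% of all tested genes did (0.00654% higher and 0.0327% lower in EpithelialKO). Emilin1, which lies in the window but was left out, did pass in edgeR (adjusted p = 0.0272). The median was -0.0096 without Flox mice 4 and 6. Absolute log2 fold changes over 0.5 were more frequent in members, 22 of 167 (13.2%), than over all tested genes (10.3%) and over chromosome 5 outside the window (7.62%). Of these 22 members, 1 lay within 2 Mb of Shh (6.67% of the 15 members there) and 21 beyond (13.8% of 152). Most of the 22 had low counts and large SE, such as Atg9b (SE 0.71), Wdr86 (0.70) and Cfap99 (0.62). The median absolute log2 fold change was smaller in members, 0.136, than over all tested genes, 0.161, and over chromosome 5 outside the window, 0.165. At an unadjusted p under 0.05 there were 16 members, or 9.58%, against 12.4% of all tested genes and 12% of the 761 tested chromosome 5 genes outside the window. Of the 16, 6 had higher values in EpithelialKO (3.59%, against 5.87% of all tested genes) and 10 lower values (5.99%, against 6.52%). The DESeq2 Wald test called 3 members, Slc2a9, Fgl2 and Rheb, which is 2.1% of the 143 members with an adjusted p there, against 2.21% of all genes. By direction, 1 member was higher (0.871% of all genes) and 2 were lower (1.34%). At an unadjusted p under 0.05 DESeq2 had 16 members, 9.58% against 13.2%, of which 5 were higher (against 6.08%) and 11 lower (against 7.12%). Without Flox mice 4 and 6, edgeR had 11 members at an unadjusted p under 0.05, 6.59% against 7.84%, with 2 higher (against 3.54%) and 9 lower (against 4.3%).

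Over the 167 members the Spearman correlation of the absolute log2 fold change with the distance between the nearest edges of the gene and Shh was 0.062, and that of the signed log2 fold change was -0.013. These correlations run across genes that share the same 10 mice, so they are given as descriptions. The SE of the fold change itself had a correlation of 0.078 with distance, and mean expression one of -0.042. Divided by its SE, the absolute fold change had a correlation of 0.038 with distance.

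**Figure D1:**
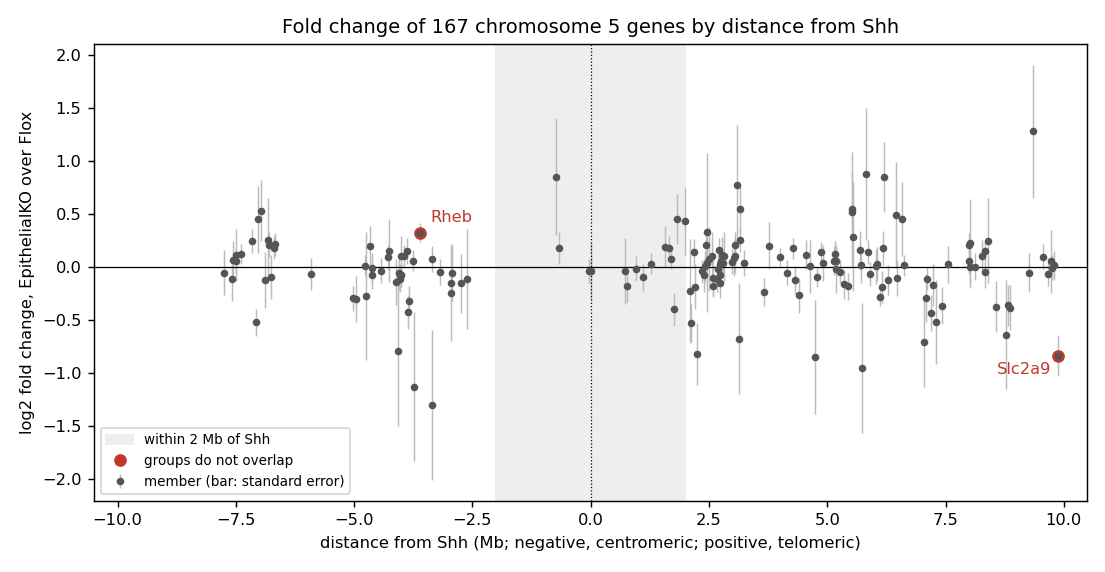
Log2 fold change of EpithelialKO over Flox (y axis) of the 167 members by distance from Shh in Mb (x axis, negative centromeric, positive telomeric); bars are standard errors and the grey band marks 2 Mb around Shh. Points scatter around 0 at all distances, and the 2 members whose groups did not overlap, Rheb and Slc2a9, lie outside the band.

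In bins, the 7 members within 1 Mb of Shh had a median absolute log2 fold change of 0.039, and the 8 members from 1 to 2 Mb one of 0.18. The 78 members from 2 to 5 Mb had 0.12 and the 74 members from 5 to 10 Mb had 0.16, beside 0.16 over all tested genes and 0.16 over chromosome 5 outside the window. The bins thus show no order by distance. Within 2 Mb the median was 0.18 and beyond 2 Mb it was 0.13, and with a near bin of 1 Mb or 5 Mb the near members had the smaller median. The difference of 0.045 between near and far members turned negative without Flox mouse 3 (-0.030), Flox mouse 5 (-0.040), Flox mouse 6 (-0.0051), EpithelialKO mouse 18 (-0.036), EpithelialKO mouse 21 (-0.0034) or EpithelialKO mouse 22 (-0.054), and in limma-voom (-0.022). Within 2 Mb, 1 of 15 members (6.67%) had an unadjusted edgeR p under 0.05, against 15 of 152 (9.87%) beyond and 12.4% of all tested genes. Without Flox mice 4 and 6 these counts were 0 and 11 (7.24%), against 7.84% of all tested genes.

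The 52 centromeric members had a median absolute log2 fold change of 0.13 and the 115 telomeric members 0.14. The signed fold change had a correlation of 0.20 with distance on the centromeric side, where 21 of the 31 members from 2 to 5 Mb were negative and 11 of the 18 from 5 to 10 Mb were positive, and of -0.071 on the telomeric side. No member lay between 1 and 2 Mb on the centromeric side.

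**Figure D2:**
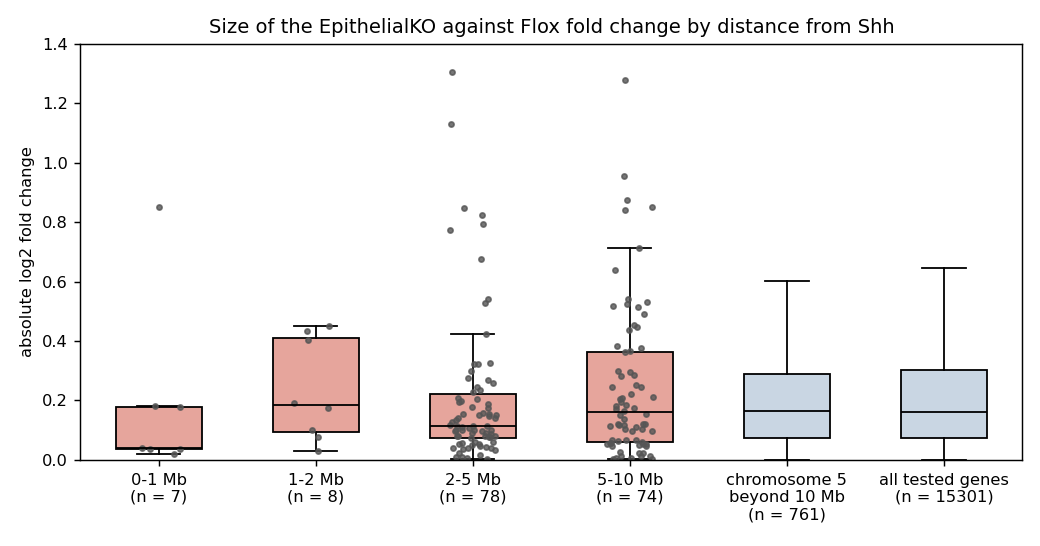
Absolute log2 fold change of EpithelialKO over Flox (y axis) in 4 bins of distance from Shh (red, points are members) beside chromosome 5 genes outside the window and all tested genes (blue); boxes span the quartiles with the median, and whiskers reach the last value within 1.5 times the box. The medians are 0.039, 0.18, 0.12 and 0.16 in the bins, and 0.16 in both sets set beside them.

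The intervals of the fold changes limit how large a shift in a gene's total RNA could have gone unseen. EpithelialKO mice are Shh Cre/+, so a change in the linked allele alone would be larger than these totals show. For all 15 members within 2 Mb the 95% interval excluded a halving in EpithelialKO, and for 13 of 15 it excluded a doubling. The other two were Dpp6 (upper limit 2.02) and Fam166c (upper limit 1.11 on the log2 scale). For 8 of the 15 the interval lay within a 1.5-fold change in either direction. Over the 167 members, 151 intervals (90.4%) excluded a halving, 149 (89.2%) a doubling, and 104 (62.3%) lay within 1.5-fold, against 87.2%, 88.1% and 56.2% over all tested genes. The members whose intervals reach beyond these bounds include imprecise ones, such as Dpp6, and ones with large fold changes, such as Slc2a9.

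The genes nearest to Shh had overlapping values in the groups. Rbm33, which encodes an RNA-binding protein and ends 0.0376 Mb centromeric of Shh, had 42.8, 57.4, 59.03, 63.8 and 54.4 CPM in EpithelialKO, against 63.9, 50.1, 54.5, 63.9 and 52.5 CPM in Flox. EpithelialKO mouse 17 lay below all Flox mice, and the other 4 lay within the Flox range. Its log2 fold change was -0.04 ± 0.12 (SE; edgeR adjusted p = 0.934), with a 95% interval from -0.28 to 0.21.

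The long non-coding gene 9530036O11Rik starts within Shh and runs telomeric of it, so that reads from the short stretch it shares with Shh may not be separable. It had 3.69, 3.52, 2.12, 3.24 and 4.51 CPM in EpithelialKO, against 4.23, 3.77, 3.21, 2.86 and 3.45 CPM in Flox. The values of both groups were mixed (log2 fold change -0.04 ± 0.28, SE; edgeR adjusted p = 0.976).

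Lmbr1, whose intron holds the limb enhancer of Shh, lies 0.763 Mb telomeric. It had 21.8, 14.6, 18.4, 15.8 and 19.4 CPM in EpithelialKO, against 20.3, 24.3, 17.9, 16.2 and 23.3 CPM in Flox. The lowest and the highest values came from EpithelialKO mouse 18 and Flox mouse 3, and the other values interleaved (log2 fold change -0.18 ± 0.15, SE; edgeR adjusted p = 0.674).

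Nom1, a nucleolar protein, averaged 33.4 ± 4.31 CPM in EpithelialKO and 33.8 ± 3.26 CPM in Flox (SD, n = 5 each), with -0.02 ± 0.12 as log2 fold change and SE. Paxip1, a BRCT-domain protein of histone methyltransferase complexes and the DNA damage response, averaged 28.6 ± 6.03 CPM in EpithelialKO and 25.2 ± 3.93 CPM in Flox (0.18 ± 0.15, SE). Rnf32, a RING finger gene, averaged 2.8 ± 0.754 CPM in EpithelialKO and 2.87 ± 0.655 CPM in Flox (-0.04 ± 0.31, SE). Of these 3 genes none had groups that separated.

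Dpp6, an auxiliary subunit of potassium channels, had the largest fold change within 2 Mb, at low counts. It had 0.774, 2.97, 1.44, 1.62 and 1.46 CPM in EpithelialKO, against 1.58, 1.02, 1.36, 0.266 and 0.305 CPM in Flox. Flox mice 5 and 6 were lowest and EpithelialKO mouse 18 highest, and the log2 fold change of 0.85 had an SE of 0.55 (edgeR adjusted p = 0.56). The fourth gene on the centromeric side, Actr3b, an actin-related protein, lies 2.61 Mb away and averaged 1 ± 0.463 CPM in EpithelialKO and 1.09 ± 0.229 CPM in Flox (SD, n = 5 each). Signs of near-zero fold changes were not stable: Rbm33, Rnf32, Nom1, 9530036O11Rik and Actr3b turned positive when single mice were left out.

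Other genes close to Shh were not expressed enough to test. Cnpy1, En2 and Htr5a had 0 counts in all mice, and Mnx1 had 4 in all. From 1 to 2 Mb, the ubiquitin ligase Ube3c had a log2 fold change of -0.10 ± 0.13 and the co-chaperone Dnajb6 one of 0.03 ± 0.10. The adjoining genes Hadha and Hadhb, which encode the subunits of the mitochondrial trifunctional protein of fatty acid oxidation, had 0.18 ± 0.12 and 0.08 ± 0.09. Selenoi, an ethanolamine phosphotransferase of phospholipid synthesis 1.77 Mb telomeric, was the single member within 2 Mb with an unadjusted p under 0.05. It had 20.8, 17.2, 15.8, 19.1 and 26.4 CPM in EpithelialKO, against 22.1, 23.6, 25.3, 32.8 and 27.6 CPM in Flox. EpithelialKO mouse 22 lay within the Flox range and the other 4 below it (log2 fold change -0.40 ± 0.15, SE; edgeR adjusted p = 0.289, and unadjusted p = 0.0187). Without Flox mice 4 and 6 its log2 fold change was -0.39 and the unadjusted edgeR p was 0.0573.

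**Figure D3:**
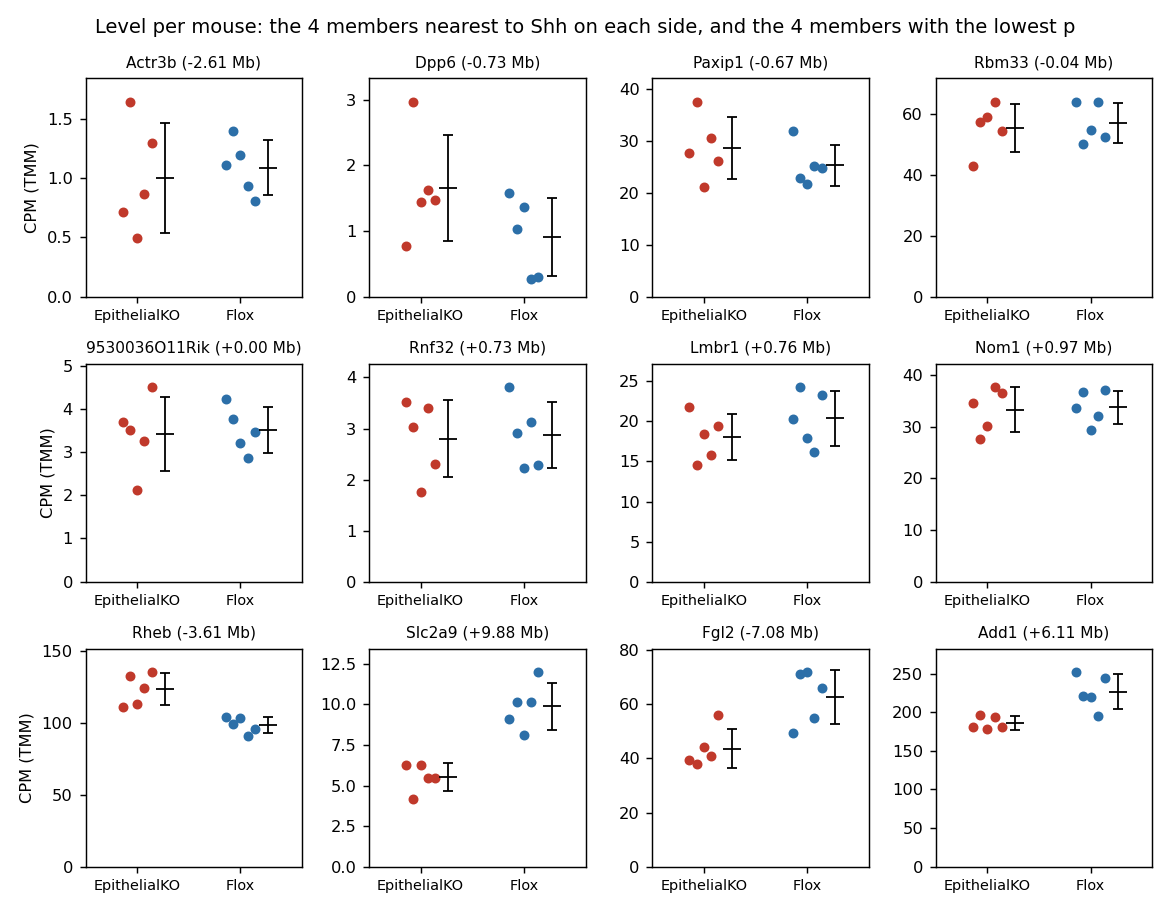
CPM after TMM (y axis, from 0) in each EpithelialKO mouse (red) and Flox mouse (blue) for the 4 members nearest to Shh on each side and the 4 members with the lowest p; the distance from Shh is in each title, and the bar shows the mean and SD of 5 mice. The groups overlap in the 8 nearest genes and are apart in Rheb and Slc2a9.

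The groups did not overlap in 2 members, 1.2%, against 3.12% of all tested genes, with 1 higher (against 1.63%) and 1 lower (against 1.48%). Rheb, the small GTPase that activates the growth kinase complex mTORC1 (Entrez 19744, chromosome 5, 24802823 to 24842361, 3.61 Mb centromeric), had 111, 132, 113, 124 and 135 CPM in EpithelialKO, against 104, 99.1, 103, 90.8 and 95.4 CPM in Flox. All EpithelialKO mice were above all Flox mice. The log2 fold change was 0.32 ± 0.09 (SE; edgeR adjusted p = 0.153, and DESeq2 adjusted p = 0.0434).

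Slc2a9, a urate transporter of the glucose transporter family (Entrez 117591, chromosome 5, 38349272 to 38503147), was the member farthest from Shh, 9.88 Mb telomeric, and extends past the edge of the window. It had 6.26, 4.18, 6.24, 5.46 and 5.46 CPM in EpithelialKO, against 9.07, 10.1, 8.09, 10.1 and 12.0 CPM in Flox. All EpithelialKO values were below all Flox values, and the log2 fold change was -0.84 ± 0.19 (SE; edgeR adjusted p = 0.108, and DESeq2 adjusted p = 0.00502). Leaving out single mice moved it between -0.90 and -0.75.

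Fgl2, a fibrinogen-like protein made by macrophages and T cells and by endothelium, lies 7.08 Mb centromeric and within the span of Ccdc146. It had 39.3, 37.7, 44.1, 40.7 and 55.9 CPM in EpithelialKO, against 49.5, 71.2, 71.8, 54.8 and 66.0 CPM in Flox. EpithelialKO mouse 22 alone lay within the Flox range (log2 fold change -0.52 ± 0.13, SE; edgeR adjusted p = 0.131, and DESeq2 adjusted p = 0.0238). Add1, which encodes alpha-adducin of the spectrin-actin skeleton, lies 6.11 Mb telomeric. It had 180, 197, 179, 194 and 181 CPM in EpithelialKO, against 252, 221, 219.7, 195 and 245 CPM in Flox. Flox mouse 5 lay within the EpithelialKO range and the other Flox mice above it (-0.28 ± 0.09, SE; edgeR adjusted p = 0.196).

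The other members with the lowest p and lower values in EpithelialKO lay from 2.12 to 7.18 Mb from Shh. Kcnk3 and Dpysl5 lie in 1 telomeric stretch with Selenoi (1.77 Mb, -0.40) and the omitted Emilin1 (2.45 Mb, -0.86), all lower in EpithelialKO. Other genes of that stretch were higher, such as Drc1 (1.81 Mb, log2 fold change 0.45) and Ost4 (2.44 Mb, 0.21). Whether the lower genes form a group was not tested. Kcnk3, a background potassium channel 2.12 Mb telomeric that overlaps Gm9899, averaged 16.7 ± 3.93 CPM in EpithelialKO and 24.1 ± 3.92 CPM in Flox (SD, n = 5 each). Dpysl5, a collapsin response mediator protein 2.24 Mb telomeric, averaged 5.78 ± 2.92 CPM in EpithelialKO and 10.2 ± 2.85 CPM in Flox. The secreted serine protease gene Htra3, 7.18 Mb telomeric, averaged 11.02 ± 2.36 CPM in EpithelialKO and 14.9 ± 1.79 CPM in Flox. Their log2 fold changes were -0.53 ± 0.18, -0.82 ± 0.29 and -0.44 ± 0.17 (SE), with edgeR adjusted p from 0.238 to 0.289. Chpf2, a chondroitin polymerising enzyme 3.86 Mb centromeric, had -0.42 ± 0.16, and its neighbour Smarcd3, a subunit of SWI/SNF chromatin remodelling complexes, had -0.32 ± 0.14. These 2 genes overlap at their ends, so they may share reads.

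Besides Rheb, the members with the lowest p and higher values included Ost4, Mrpl33, Gsap and Dnajc2. Ost4, a subunit of the oligosaccharyltransferase that N-glycosylates proteins in the endoplasmic reticulum, averaged 103 ± 8.48 CPM in EpithelialKO and 89.4 ± 7.09 CPM in Flox (log2 fold change 0.21 ± 0.09, SE). Mrpl33, a protein of the mitochondrial ribosome, averaged 79.5 ± 14.1 CPM in EpithelialKO and 66.5 ± 6.16 CPM in Flox (0.26 ± 0.12). Gsap, named for the activation of gamma-secretase, had 0.25 ± 0.11, and the ribosome-associated co-chaperone Dnajc2 had 0.21 ± 0.11. Ost4 overlaps Agbl5 and Mrpl33 overlaps Gm38424. None of these 4 passed the threshold (edgeR adjusted p from 0.358 to 0.435).

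Higher values at low counts were seen in 3 further genes. Rbks, ribokinase, averaged 6.75 ± 1.64 CPM in EpithelialKO and 4.64 ± 0.62 CPM in Flox (0.54 ± 0.22, SE). Grk4, a kinase of G protein-coupled receptors, averaged 5.45 ± 2.38 CPM in EpithelialKO and 3.03 ± 0.813 CPM in Flox (0.85 ± 0.33). The homeobox gene Msx1, 9.35 Mb telomeric, had 2.38, 0.934, 1.62, 2.05 and 1.18 CPM in EpithelialKO, against 0.698, 0.539, 1.41, 0 and 0.66 CPM in Flox (1.28 ± 0.63). Without Flox mice 4 and 6, the unadjusted edgeR p-values of Gsap, Ost4, Mrpl33, Rbks and Grk4, all under 0.05 with all mice, lay between 0.0584 and 0.12. Under the same omission the log2 fold change of Msx1 was 1.92 and its groups no longer overlapped, as was the case in 6 members in all (3.59%, against 6.09% of all tested genes under the same omission), 3 higher (against 3.15%) and 3 lower (against 2.94%). Without EpithelialKO mouse 18 there were 9 such members (5.39%, against 5.07%), 6 higher (against 2.7%) and 3 lower (against 2.37%), among them Dnajc2, Ost4, Mrpl33, Rbks, Dpysl5 and Add1.

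By function, 7 of 8 role lists had medians between -0.056 and 0.087, and no member of any list passed in edgeR. The lists, drawn up from knowledge of this region and with earlier results of these data known, hold 100 of the 167 members. Mitochondrial and metabolic enzymes had 9 of 18 members positive with a median log2 fold change of -0.0029, and signalling and cytoskeletal genes had 11 of 22 positive with a median of -0.018. Chromatin and transcription genes had 7 of 18 positive (median -0.056), cilium, centrosome and membrane traffic genes 8 of 17 (median -0.0045), and DNA repair and replication genes 5 of 7 (median 0.040). Genes of RNA processing, translation and protein folding had 8 of 11 positive (median 0.087), and the Shh neighbours 2 of 7 (median -0.036). The median over all tested genes was 0.00084.

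The list of secreted, matrix and immune genes had the lowest median, -0.44, with 6 of 7 members negative. Of the 7, 3 had lower values at an unadjusted edgeR p under 0.05, against 6.52% of all tested genes. Since the list was chosen with earlier results of these data known, this contrast is a description and was not tested. Besides these 3, Fgl2, Chpf2 and Htra3, its members were Lrrc17 (-0.12 ± 0.26), Spon2 (-0.85 ± 0.54), Cpz (-0.71 ± 0.42) and Hgfac (0.45 ± 0.35, SE). Without Flox mice 4 and 6 Spon2 had -0.24 and Cpz -0.41, and the list's median was -0.41 with 6 of 7 negative. Summed levels of 9 endothelial markers lay between 2855 and 3849 CPM in EpithelialKO and between 3894 and 4861 CPM in Flox, and all 9 had negative fold changes. Summed levels of 9 fibroblast markers lay between 1153 and 1269.5 CPM in EpithelialKO and between 1331.5 and 2092 CPM in Flox, with 8 of 9 negative, and no marker of any list was at 0. The 7 T and NK cell markers were all negative (77.2 to 127 CPM in EpithelialKO, against 92.0 to 161 CPM in Flox), as were all smooth muscle, mesothelial, B cell and neutrophil markers, with overlapping sums. The 7 AT2 markers were all positive (48137 to 59604 CPM in EpithelialKO, against 40035 to 47997 CPM in Flox), and all club and pan-epithelial markers were positive with overlapping sums. Other lists were mixed, with overlapping sums: macrophage (4 positive, 2 negative), AT1 (4 and 3), pericyte (1 and 4) and cardiac muscle (2 and 3). All 4 tested erythroid and all 4 tested adipose markers were positive, also with overlapping sums. In whole lung, fewer cells of a type and less RNA per cell cannot be told apart, and the part of these markers in the values of the members was not tested.

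Drc1, a subunit of the regulatory complex of the ciliary axoneme 1.81 Mb telomeric, had 23.7, 18.3, 11.9, 15.8 and 8.62 CPM in EpithelialKO, against 12.3, 8.73, 10.8, 15.4 and 10.2 CPM in Flox. EpithelialKO mice 17 and 18 were high and mouse 22 was the lowest of all 10 (log2 fold change 0.45 ± 0.24, SE; edgeR adjusted p = 0.457). Fam166c, at the outer edge of the bin from 1 to 2 Mb, had 0.43 ± 0.32. Summed levels of 6 ciliated cell markers lay between 782 and 1134 CPM in EpithelialKO and between 624 and 902 CPM in Flox, with all 6 positive; their part in these values was not tested. Drc1, Fam166c and Smarcd3, and the named genes from 1 to 2 Mb other than Selenoi, were chosen after their values were seen.

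After TMM scaling the summed levels of the flanking genes overlapped between the groups, and as a share of raw counts they were lower in 4 of 5 EpithelialKO mice than in every Flox mouse. The share was 0.596 to 0.618% in EpithelialKO and 0.614 to 0.645% in Flox, and the TMM factors, which scale for composition, were 0.962 to 0.988 in EpithelialKO and 1.002 to 1.047 in Flox. The summed level was 6063 to 6328 CPM in EpithelialKO and 6079.7 to 6286.5 CPM in Flox, with medians of 6156 and 6160.0 CPM. The correlation of the absolute deviation from the Flox mean with distance was 0.0028 to 0.10 in EpithelialKO mice and -0.079 to 0.14 in Flox mice, each set against the other 4. The median absolute deviation within 2 Mb was 0.14 to 0.27 in EpithelialKO and 0.16 to 0.37 in Flox on the log2 scale. Flox mouse 5, which had the lowest total count, had the highest value of all 10 mice in 31 members and the lowest in another 31.

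**Figure D4:**
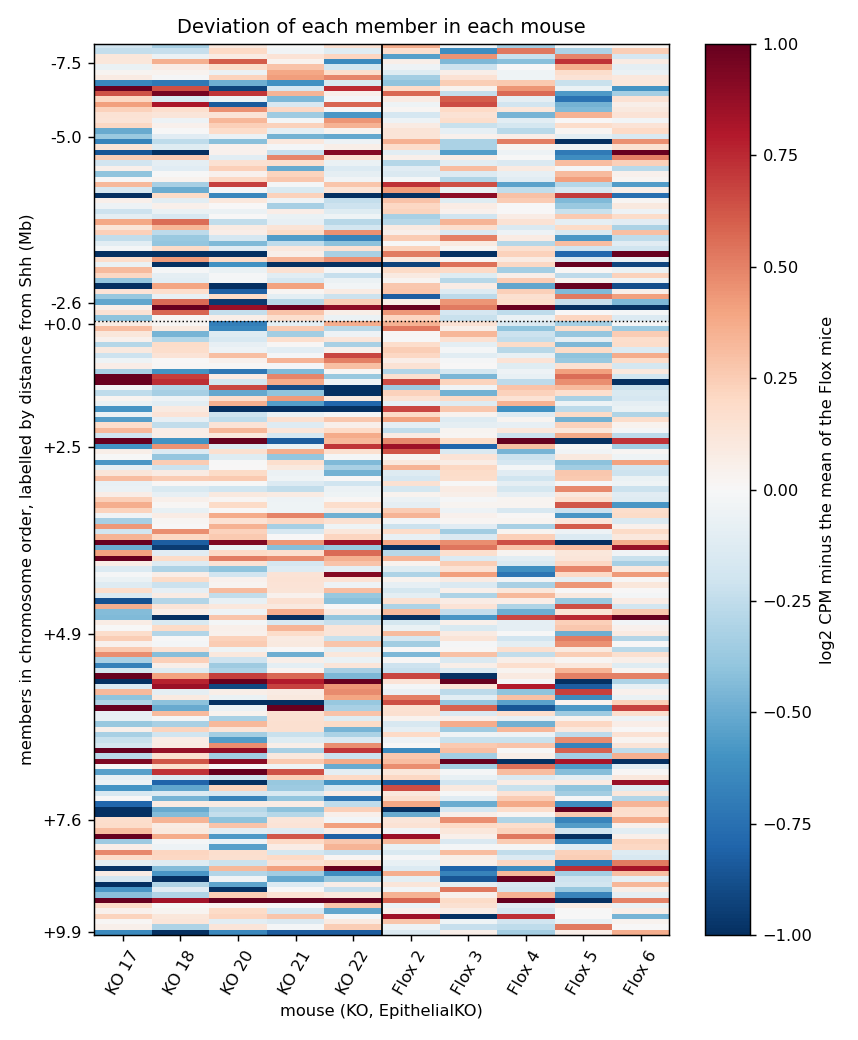
Log2 CPM of the 167 members minus the mean of the Flox mice (colour, cut at -1 and 1; the other 4 Flox mice for a Flox mouse), with EpithelialKO mice on the left, Flox mice on the right and members in chromosome order (y axis, distance from Shh in Mb; dotted line, Shh). No block of rows around the dotted line separates the groups, and column Flox 5 holds many of the extreme values.

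The values at the edges of the rule were as follows. The outermost members were Magi2, a synaptic and junctional scaffold (log2 fold change -0.05 ± 0.21, SE), on the centromeric side and Slc2a9 on the telomeric side. The nearest tested genes outside were Gnai1, an inhibitory G protein subunit (-0.02 ± 0.15), and Wdr1, an actin disassembly factor (0.12 ± 0.08). By counts, the lowest member was Cgref1 with 133 counts over all mice, and the highest untested window gene was Otof with 109. Of the 9 omitted genes, Emilin1, a glycoprotein of elastic fibres 2.45 Mb telomeric, passed in edgeR (log2 fold change -0.86 ± 0.14, SE; adjusted p = 0.0272), and Fgfr3 had an unadjusted p of 0.0247, so the counts of members above leave out these values.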

How the data were processed

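Per the labels' protocols, lung RNA was extracted with Trizol, captured on oligo(dT) beads, fragmented and reverse transcribed from random hexamers. Per the submitters' processing notes, cutadapt and HISAT2 were used and the build was GRCm38. Their versions, the counting tool and its strand setting were not stated in the sources used here. Per the file headers, the authors deposited 1 table of counts with 27179 Entrez genes and a column for each mouse; its values are whole numbers. Reads of the 92 members that overlap another gene may be shared.

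Positions are those of the RefSeq table of GRCm38.p6, which named 25275 of the genes. The filter was filterByExpr at its defaults (15301 genes), scaling was TMM, and the test was edgeR 4.0.16's quasi-likelihood test (robust, group as the only term, R 4.3.3), Benjamini-Hochberg adjusted. Alternatives used DESeq2 1.42.0 and limma 3.58.1. The tests were checked on simulated counts in which randomly chosen genes, or all members within 2 Mb of Shh, were shifted in total RNA. No other pattern by distance was simulated. Mouse numbers are not shared between groups. Every pair of mice differed beyond counting noise (chi-square per degree of freedom of at least 17).

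Named were members without overlap between groups, the 8 with the lowest p per direction, the 4 nearest to Shh per side, and the lowest p per bin and side. Members and lists were chosen with earlier results of these data known.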

Additional observations from a re-analysis of the deposited data

How the results depend on the processing

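No paired analysis was possible because the groups share no mouse numbers. No member passed an adjusted p of 0.05 in 18 of 20 alternatives, all fits without a single mouse included. In the other two DESeq2 called 3, and with the 8 omitted genes other than Shh, added after seeing the data, edgeR called 1 (Emilin1). Leaving out single mice gave 12 to 20 members at an unadjusted edgeR p under 0.05 and 2 to 9 without overlap. With all mice 12.4% and 3.12% of all tested genes were so called. The 9, without EpithelialKO mouse 18, were 5.39% of members, against 5.07% of all tested genes under that omission. Shares of all tested genes under the other single omissions are not given here. The median log2 fold change ran from -0.017 to 0.026. The near-minus-far difference in absolute fold change ran from -0.054 to 0.063 (0.045 with all mice). Distance correlations ran from 0.040 to 0.14 (absolute) and -0.038 to 0.023 (signed). The median was 0.020 with upper quartile scaling and 0.021 with no count filter, which gave an absolute correlation of 0.016. Without Flox mice 4 and 6, 6 members had no overlap (3.59%, against 6.09% of all tested genes), the median was -0.0096 and the signed correlation 0.066. With sex class as a covariate the last 2 were -0.010 and 0.065. A 5 Mb window left 9 members at an unadjusted p under 0.05, 1 without overlap, a median of -0.0085 and correlations of -0.00097 (absolute) and -0.10 (signed). A near bin of 1 Mb gave a difference of -0.099 and one of 5 Mb -0.044. Members of at least 5 CPM gave correlations of 0.0045 and -0.080. Without members that overlap a gene, 3 had an unadjusted edgeR p under 0.05, 1 had no overlap and the signed correlation was 0.023. The counts of the 5 Mb window and of this subset stand beside 12.4% and 3.12% of all tested genes. The centromeric side gave -0.015 and 0.20, the telomeric side -0.071 signed. In SE units the median absolute change was 1.003 within 2 Mb and 0.85 beyond. The cause of these shifts was not tested.

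Of the 24 named members, 19 kept their sign in all 18 alternatives. With limma-voom, Rbm33 was 0.0094 and Rnf32 0.0099. Leaving out single mice gave -0.094 to 0.041 for Rbm33, -0.13 to 0.092 for Rnf32, -0.067 to 0.042 for Nom1, -0.16 to 0.091 for 9530036O11Rik and -0.37 to 0.051 for Actr3b. Genes under about 5 CPM are limited by depth.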
